A study of Mus musculus with 6 samples.

Results

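The tight junction genes of the vestibular epithelium were examined as the 38 protein-coding genes of the table whose symbols belong to the claudins (Cldn), the zonula occludens scaffolds (Tjp), occludin and the other MARVEL-domain proteins (Ocln, Marveld1 to Marveld3), cingulin and paracingulin (Cgn, Cgnl1), the junctional adhesion molecules (F11r, Jam2, Jam3) and the angulins (Lsr, Ildr1, Ildr2). They were selected by symbol, with earlier results of these data known, out of 22027 protein-coding genes and 52636 genes in all. Of them, 23 are claudins. RNA-seq libraries came from 3 Control and 3 IDPN male 129S1/SvImJ mice, 2 to 4 months old by the study's methods, with the 2 utricles and 6 cristae of each animal pooled into 1 library. IDPN animals drank 3,3'-iminodipropionitrile, a nitrile that damages inner ear hair cells (HCs), in drinking water at 30 mM over 8 weeks, and Control animals were given water alone. The comparison asks which genes change in this tissue under chronic ototoxic exposure. The dissected organs hold HCs, supporting cells, neighbouring epithelium, vessels, nerve and connective tissue, so in these bulk samples fewer cells of a type and less RNA per cell cannot be told apart.

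Tight junctions are the belts of adhesion nearest to the apical surface of an epithelium. Claudins form strands between adjacent cells and either seal the space between the cells or line pores that let selected ions through, while tricellulin (Marveld2) and the angulins seal the corners where 3 cells meet and the scaffolds tie the strands to actin. In the inner ear these belts separate the potassium-rich endolymph from the perilymph, and loss of Cldn9, Cldn11, Cldn14, Marveld2 or Ildr1 causes deafness in mice or humans.

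Tight junction genes were called as changed at about the rate of any gene, and the clearest differences lay in 2 claudins and 1 library. Of the 30 members at 10 or more counts, only 10 had a 95% interval within 1.5-fold in both directions, so larger changes remain possible for most. Cldn14 fell and Cldn10 rose in IDPN, each by about 1.59-fold, and neither call held under every alternative. The claudins Cldn9, Cldn4, Cldn3, Cldn6 and Cldn7 were higher in 1 of the 3 IDPN animals, IDPN 2, than in any other library. The excess over the highest other library ranged from 1.66 times for Cldn3 to 5.65 times for Cldn4. Tjp1, Tjp3, Cgn, Cgnl1, Marveld2, Ildr1 and Cldn8 differed by less than the spread between replicates.

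The promoters of the called claudins and of the claudins with a single listed start that were high in IDPN 2 are shown so that their sequence can be read beside the values. Each is the 250 bases before a RefSeq start on the GRCm38.p6 build, 5′ to 3′ on the gene's strand. Capitals mark any match, on either strand, to 4 short motifs: TGANTCA, read by AP-1 factors, CAGGTG, an E-box read by Snail and Zeb factors, the TATA box TATAAA and the GC box GGGCGG. RefSeq entries were matched for 30 of the 38 members. Cldn10 has alternative first exons that give isoforms with different ion preference, and both of its starts are shown (chr14:118787621-118787870 and chr14:118854700-118854949, plus strand). Cldn14 has 3 listed starts, of which the one farthest upstream is shown (chr16:94008838-94009087, minus strand). Cldn4 (chr5:134946935-134947184, minus strand) and Cldn3 (chr5:134985964-134986213, plus strand) are neighbours, and Cldn6 (chr17:23679115-23679364, plus strand) lies beside Cldn9. GENCODE starts Cldn6 at 23679249, so the last bases of its window, with the CAGGTG match and the last GC box, lie inside the annotated gene.
Cldn14: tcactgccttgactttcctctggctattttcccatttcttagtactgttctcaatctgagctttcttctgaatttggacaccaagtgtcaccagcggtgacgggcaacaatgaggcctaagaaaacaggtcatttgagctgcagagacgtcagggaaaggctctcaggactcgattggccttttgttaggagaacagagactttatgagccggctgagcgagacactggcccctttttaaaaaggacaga
Cldn10 first start: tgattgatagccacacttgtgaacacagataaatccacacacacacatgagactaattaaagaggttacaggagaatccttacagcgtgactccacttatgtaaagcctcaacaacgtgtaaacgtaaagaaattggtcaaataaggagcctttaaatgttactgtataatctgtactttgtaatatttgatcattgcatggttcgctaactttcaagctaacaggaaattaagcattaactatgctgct
Cldn10 second start: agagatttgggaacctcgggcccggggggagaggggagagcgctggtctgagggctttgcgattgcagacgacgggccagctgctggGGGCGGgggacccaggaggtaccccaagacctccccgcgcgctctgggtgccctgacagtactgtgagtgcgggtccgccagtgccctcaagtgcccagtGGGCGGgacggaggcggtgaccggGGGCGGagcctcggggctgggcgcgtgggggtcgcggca
Cldn4: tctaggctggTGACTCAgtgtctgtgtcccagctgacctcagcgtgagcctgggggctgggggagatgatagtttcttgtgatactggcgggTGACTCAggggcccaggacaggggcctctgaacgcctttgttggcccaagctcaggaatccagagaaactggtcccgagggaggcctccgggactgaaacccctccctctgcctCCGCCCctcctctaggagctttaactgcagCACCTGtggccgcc
Cldn3: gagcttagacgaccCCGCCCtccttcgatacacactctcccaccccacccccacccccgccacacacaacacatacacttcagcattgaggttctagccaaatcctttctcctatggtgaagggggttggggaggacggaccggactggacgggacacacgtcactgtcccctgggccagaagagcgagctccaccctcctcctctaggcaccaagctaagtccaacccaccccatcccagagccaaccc
Cldn6: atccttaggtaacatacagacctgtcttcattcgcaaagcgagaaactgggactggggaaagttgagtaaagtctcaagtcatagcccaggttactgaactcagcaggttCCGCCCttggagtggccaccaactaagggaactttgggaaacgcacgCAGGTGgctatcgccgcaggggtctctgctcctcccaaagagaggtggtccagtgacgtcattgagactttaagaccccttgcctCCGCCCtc

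Both Cldn10 windows differ in base composition, with 36.0% G and C at the first start and 72.4% at the second, and the second holds 3 GC boxes where the first holds none of the 4 motifs. The counts here are summed over isoforms and do not say which start was used. Cldn4 has 2 matches to TGANTCA, a motif present in 6.75% of 32851 windows of the same length, and no other window shown has one. A CAGGTG match was present in Cldn4 and Cldn6 (17.2% of all windows), a GC box in Cldn4, Cldn3, Cldn6 and the second Cldn10 window (32.7%), and no TATA box in any of the 6 (12.4%). The Cldn14 window shown held none of the 4 motifs, and of its 2 starts not shown, the second start holds a CAGGTG match that begins 31 bases before it. A match is a description of the sequence and not of a bound factor.

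Depth was similar in all libraries, with totals of 40474847 to 43566332 estimated counts. The DESeq2 size factors differed more, at 0.825, 0.866 and 1.12 in Control 1 to 3, against 1.21, 0.996 and 1.07 in IDPN 1 to 3. Values are given as normalized counts (estimated counts divided by the DESeq2 size factor of the library), and levels are compared between genes only per kilobase of mean transcript length. Of the 38 members, 30 averaged 10 or more normalized counts. Cldn13, Cldn16, Cldn18 and Cldn20 were listed at 0 in all 6 libraries, where a count of 0 allows up to 3 counts in a library. Cldn2 ranged from 0 to 12.4 normalized counts, Cldn15 from 0 to 13.3, Cldn17 from 0 to 4.02 and Cldn24 from 0 to 3.31, so the genes for pore-forming claudins other than Cldn10 were at or near 0. IDPN 2 stood apart on the high side. Of 17650 tested genes, 554 were at least 1.5 times higher in it than in any of the other 5 libraries. The other libraries had 233 to 294 such genes each. On the low side Control 1 led, with 979 genes at least 1.5 times lower than in every other library. IDPN 2 had 684 such genes and the rest 350 to 680. Members high in IDPN 2 are also given without that library.

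Cldn9 was by far the most abundant member per length. In Control its level was 34766 ± 2528 normalized counts per kilobase (SD, n = 3), followed by Cldn8 at 13763 ± 4173, Cldn3 at 8059 ± 1996, Jam3 at 6064 ± 325, Cldn7 at 4500 ± 465, Cldn5 at 3671 ± 1484 and F11r at 3206 ± 134 (SD, n = 3 each). Cldn9 stood clear of Cldn8, and Jam3 of Cldn7, by more than 1 SD. Cldn8 exceeded Cldn3, and Cldn3 exceeded Jam3, in each of the 3 Control libraries, although their SD ranges overlapped. Cldn5 overlapped with both Cldn7 and F11r, and its place beside each changed between libraries. Jam2 (2021 ± 258) and Lsr (1830 ± 113) came next and overlapped, with Jam2 the higher in 2 of 3 Control libraries. Of the summed level of all claudins per length, Cldn9 took 46.3%, 47.2% and 53.1% in Control 1 to 3, against 48.4%, 69.6% and 48.3% in IDPN 1 to 3. Cldn8, a renal and inner ear claudin that can form a barrier to cations, took 21.7%, 19.6% and 15.3% in Control 1 to 3, against 21.4%, 6.47% and 23.8% in IDPN 1 to 3. The shares of both genes therefore lay close together in 5 libraries and departed in IDPN 2.

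**Figure D1:**
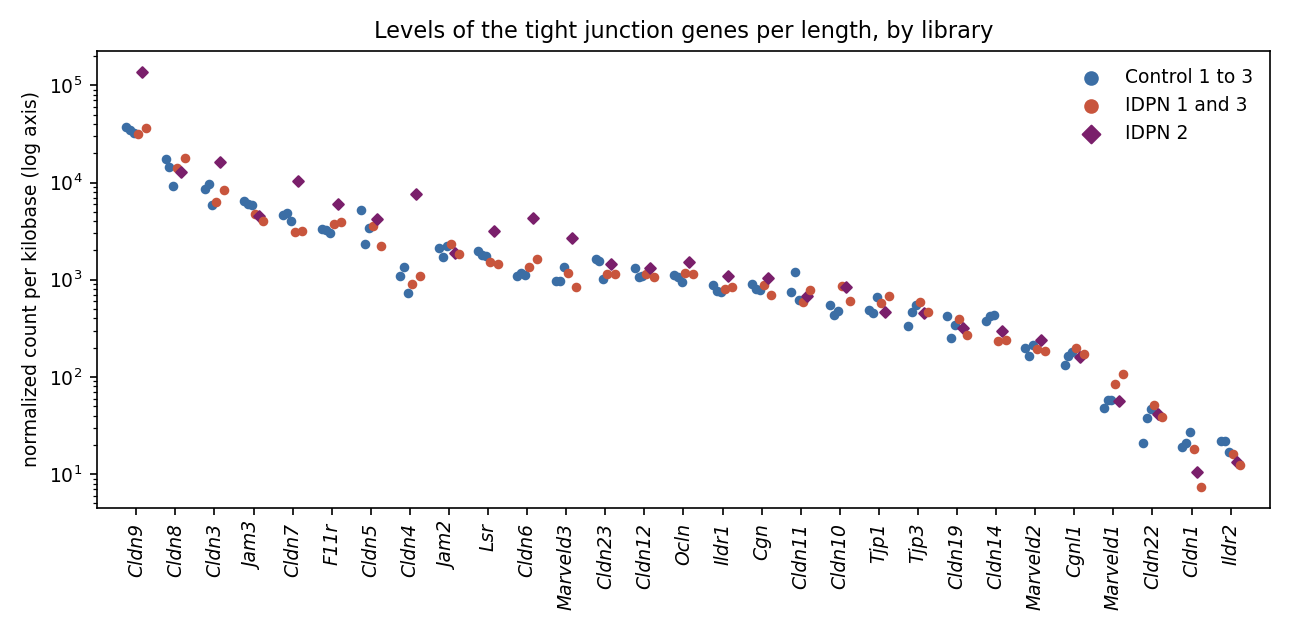
Normalized count per kilobase of mean transcript length (log axis) of 29 members that averaged 10 or more normalized counts, ordered by their mean level over all libraries. Each point is 1 library. IDPN 2 (diamonds) is at least 1.5 times the highest other library for Cldn9, Cldn3, Cldn7, F11r, Cldn4, Lsr, Cldn6 and Marveld3.

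Of the 31 members that DESeq2 gave an adjusted p (Padj), 1 rose and 1 fell at a Padj under 0.05 and a fold change above 1.5, which is 3.23% in each direction. Over all 17650 genes with a Padj, 2.32% rose and 3.42% fell, so the members were called at about the rate of any gene. Every IDPN library lay above every Control library for 4 members and below for 4, 12.9% each, against 11.1% and 11.4% of all genes tested. The median log2-Fold_Change was 0.16 over the 31 members and 0.02 over all genes tested. Without IDPN 2, Cgn, Cldn3, Cldn4, Cldn7, Cldn9, Cldn12, Lsr, Marveld2 and Marveld3 turned negative and Jam2 turned positive. The median of the members therefore rests in part on that library. Among members at 10 or more counts, the 95% interval of the fold change lay within 1.5-fold in both directions for 10, among them Cldn8, Cldn12, Cldn19, Jam2, Ildr1, Marveld2, Tjp1, Cgn and Cgnl1.

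Of the 9 mostly sealing claudins, Cldn14 was the one that was called. Cldn14 (ENSMUSG00000047109, chr16:93919031-94008837, minus strand), which in the inner ear is made by sensory epithelium and whose loss leads to HC degeneration in the cochlea, had 355, 398 and 410 normalized counts in Control 1 to 3, against 223, 284 and 228 in IDPN 1 to 3. All 3 IDPN animals were below all 3 Control animals. Its log2-Fold_Change was −0.67 (SE 0.21, 95% interval −1.08 to −0.25, DESeq2 Padj = 0.0317), a fold change of 1.59 in favour of Control. The call was not made by the edgeR quasi-likelihood test (adjusted p = 0.0734) or with total-count scaling (log2-Fold_Change −0.44, DESeq2 Padj = 0.357), and when the 6 libraries were left out in turn it was kept only without IDPN 2 (−0.79, DESeq2 Padj = 0.0194). The HC marker list moved with it: 8 of 14 markers fell and none rose, no marker was at 0, and their summed normalized count was 31820 to 35970 in Control, against 22654 to 22988 in IDPN. The transcription factor gene Pou4f3 among them fell by 1.00 on the log2 scale (DESeq2 Padj = 9.34e-10). Supporting cell markers were also lower in IDPN, at summed counts of 219264 to 262672 against 310273 to 441055 in Control, with 1 of 9 (Gjb6) called lower and none higher. Of the neuron markers 4 of 6 tested fell, with sums of 3439 to 3647 in IDPN and 5424 to 5641 in Control. The part of any of these cell types in the Cldn14 difference was not tested.

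Cldn10 (ENSMUSG00000022132, chr14:118787908-118875489, plus strand), whose isoforms line cation or anion pores, was the only one of the 5 pore-forming claudins to average 10 or more counts. It had 792, 619 and 686 normalized counts in Control 1 to 3, against 1245, 1215 and 874 in IDPN 1 to 3. The groups did not overlap, with IDPN 3 nearest to Control 1. Its log2-Fold_Change was 0.67 (SE 0.20, 95% interval 0.28 to 1.06, DESeq2 Padj = 0.0180), a 1.59-fold rise. The edgeR adjusted p was 0.0651, and the call was lost without Control 2 (0.58, DESeq2 Padj = 0.167), without IDPN 1 (0.58, DESeq2 Padj = 0.145) and without IDPN 2 (0.60, DESeq2 Padj = 0.109). Under total-count scaling Cldn10 kept its call. Melanocyte markers were higher in IDPN, with summed counts of 15009 to 22921 against 6685 to 14843 in Control, and none of 7 was called. Erythroid and stroma markers had overlapping sums, with 4 of 5 and 1 of 8 called higher and none lower. Dark and transitional cell markers also had overlapping sums, of 54285 to 89468 in Control and 58819 to 67852 in IDPN. Of these 8 markers 1 was called higher and none lower, while 2 had a higher and 6 a lower value in IDPN. The part of any cell type in the Cldn10 difference was not tested.

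**Figure D2:**
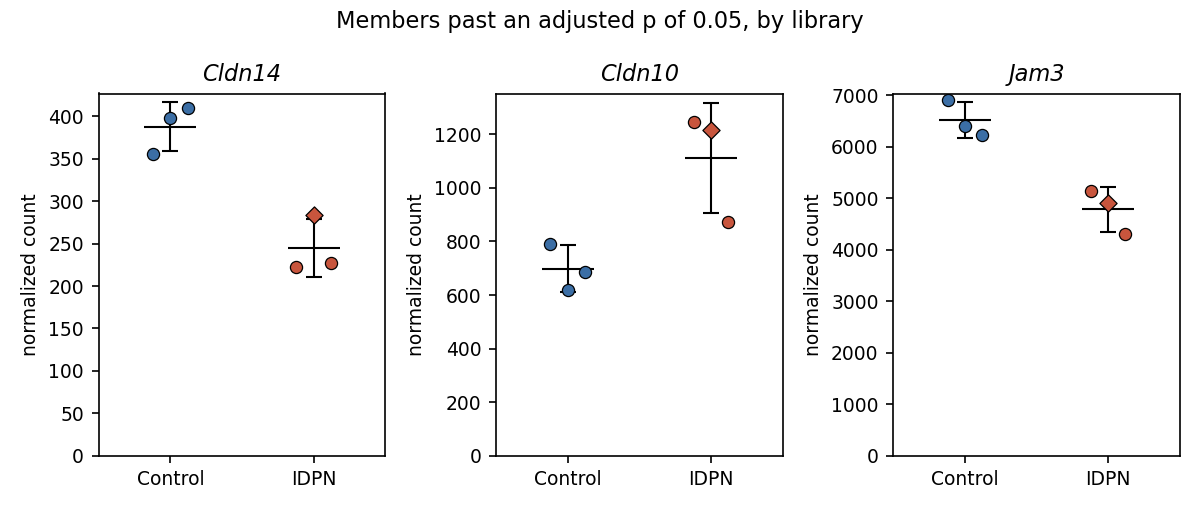
Normalized counts of Cldn14, Cldn10 and Jam3 in each Control and IDPN library (points, IDPN 2 as a diamond) with the group mean and SD (bars, n = 3). The groups do not overlap for any of the 3 genes, with IDPN below Control for Cldn14 and Jam3 and above it for Cldn10.

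The other sealing claudins did not pass the test. Cldn11, which forms strands between the basal cells of the cochlea and in myelin, had 1386, 2233 and 1166 normalized counts in Control, against 1115, 1275 and 1480 in IDPN, so the groups overlapped and Control 2 stood above the rest (log2-Fold_Change −0.31, 95% interval −0.77 to 0.16; 0.01 without Control 2). Cldn5, the claudin of blood vessel endothelium, had 7463, 3313 and 4818 in Control, against 5039, 5954 and 3178 in IDPN. Its groups overlapped (log2-Fold_Change −0.14, 95% interval −0.67 to 0.40), and 1 of 10 endothelial markers fell, Kdr, with summed marker counts of 4556 to 6639 in Control, against 4560 to 6411 in IDPN. Cldn19, found in Schwann cells and kidney, ranged from 646 to 1081 over all libraries (log2-Fold_Change −0.05). Cldn1, a barrier claudin of skin, was low, at 70.3, 77.3 and 101 normalized counts in Control and 67.9, 39.2 and 27.1 in IDPN. IDPN lay below Control without overlap (log2-Fold_Change −0.89, 95% interval −1.71 to −0.06), but the test was not passed (DESeq2 Padj = 0.243).

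Members of less settled role showed no called difference. Cldn8 had 41293, 34129 and 21852 normalized counts in Control 1 to 3, against 32900, 30319 and 41796 in IDPN 1 to 3 (log2-Fold_Change 0.11, 95% interval −0.33 to 0.55). Its groups overlapped, and IDPN 2 lay within the range of Control. Cldn12 ranged from 2073 to 2602 (log2-Fold_Change 0.03) and Cldn23 from 1058 to 1710 (−0.18). Cldn22 ranged from 20.6 to 51.3 normalized counts (0.31), and all of its 76-base stretches occur in transcripts of Cldn24 or Wwc2, so its count is uncertain.

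Among the junctional adhesion molecules, Jam3 was lower in IDPN by less than the fold threshold. Jam3 (JAM-C, ENSMUSG00000031990, chr9:27097384-27155421, minus strand), an adhesion molecule of epithelium, endothelium and Schwann cells, had 6901, 6396 and 6230 normalized counts in Control, against 5129, 4908 and 4301 in IDPN. The groups did not overlap, and the log2-Fold_Change was −0.45 (SE 0.15, 95% interval −0.74 to −0.15, DESeq2 Padj = 0.0450). When each library was left out in turn, the DESeq2 Padj stayed under 0.05 only without Control 3 (0.0229) and was otherwise 0.0700 to 0.200. With independent filtering off the DESeq2 Padj was 0.0650. The edgeR adjusted p was 0.145, total-count scaling gave −0.19 (DESeq2 Padj = 0.650), and 26.0% of its 76-base stretches are shared with the overlapping gene model Gm48796. The 9 Schwann cell markers, of which 1 rose and none was at 0, summed to 115209 to 242273 in Control and to 99343 to 120688 in IDPN, and their part in the Jam3 difference was not tested. Jam2, found on endothelium, had 4324, 3571 and 4598 in Control, against 4751, 3879 and 3827 in IDPN, with overlapping groups and a log2-Fold_Change of −0.00 (95% interval −0.34 to 0.33). F11r (JAM-A), which recruits polarity proteins to the junction, had 3984, 3938 and 3683 in Control, against 4534, 7248 and 4706 in IDPN. All IDPN libraries were above Control (log2-Fold_Change 0.51, DESeq2 Padj = 0.111), and the value was 0.26 without IDPN 2 (DESeq2 Padj = 0.472). With total-count scaling F11r was called (0.73, DESeq2 Padj = 0.0148).

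Neither the MARVEL proteins, the angulins nor the scaffolds described here held a called member in the comparison of all 6 libraries. Marveld2 had 506, 425 and 541 normalized counts in Control, against 493, 618 and 468 in IDPN (log2-Fold_Change 0.10, 95% interval −0.30 to 0.50). Ildr1, the angulin that brings tricellulin to the corner, had 2044, 1778 and 1716 in Control, against 1829, 2530 and 1920 in IDPN (0.18, 95% interval −0.17 to 0.53). In both genes the groups overlapped and IDPN 2 was the highest library. Tjp1 (ZO-1) ranged from 1371 to 2041 (0.09), Tjp3 (ZO-3) from 458 to 804 (0.17), Cgn from 2553 to 3750 (0.07) and Cgnl1 from 441 to 663 (0.16), with overlap in each. Ocln (occludin) had 2210 to 2628 in Control, against 2650 to 3549 in IDPN without overlap, yet the difference of 0.28 (95% interval −0.06 to 0.62) did not pass the test. Marveld1 was low, with 163, 196 and 196 in Control, against 289, 193 and 369 in IDPN (0.62, DESeq2 Padj = 0.194), and without IDPN 2 it was called (0.83, DESeq2 Padj = 0.0402). Ildr2 ranged from 37.3 to 65.8 (−0.52, DESeq2 Padj = 0.564).

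**Figure D3:**
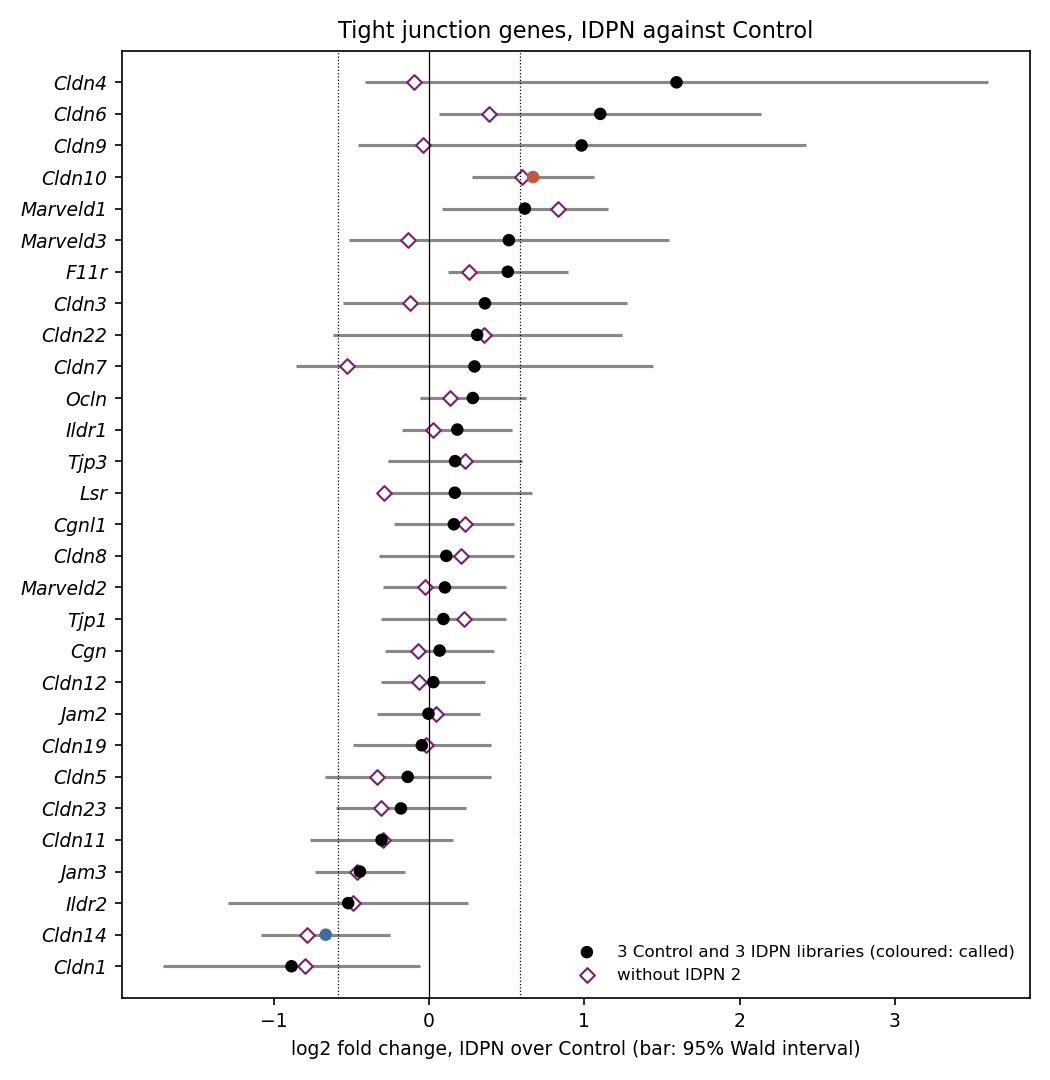
Log2 fold change of IDPN over Control for 29 members that averaged 10 or more normalized counts, with 95% Wald intervals (bars), and the same value without IDPN 2 (open diamonds). Dotted lines mark a fold change of 1.5, Cldn10 and Cldn14 are the called members, and the open diamonds of Cldn4 and Cldn9 lie near 0.

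IDPN 2 exceeded each of the other 5 libraries by at least 1.5 times in 8 of the 31 tested members (25.8%), namely Cldn3, Cldn4, Cldn6, Cldn7, Cldn9, F11r, Lsr and Marveld3, while 3.14% of all genes tested did so. No member met this in Control 1, Control 3, IDPN 1 or IDPN 3, and 1 did in Control 2, Cldn11. This was seen in 1 animal, and no test of it was made. Cldn9 (ENSMUSG00000066720, chr17:23682584-23684026, minus strand), needed for the potassium barrier around HCs, had 53813, 50172 and 46517 normalized counts in Control 1 to 3, against 45500, 199750 and 51960 in IDPN 1 to 3. Only IDPN 2 was outside the range of Control by a wide margin, at 3.71 times the highest other library. The log2-Fold_Change of 0.98 (SE 0.74, DESeq2 Padj = 0.558) became −0.04 without it (DESeq2 Padj = 0.962).

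Cldn6, an embryonic epithelial claudin, lies 137 bases from Cldn9 with the 3′ ends facing each other, and the libraries keep no strand. It had 1522, 1610 and 1553 normalized counts in Control, against 1847, 5973 and 2238 in IDPN. All 3 IDPN animals were above Control, IDPN 2 the most (log2-Fold_Change 1.10, SE 0.53, DESeq2 Padj = 0.250). Without IDPN 2 the value was 0.39 (DESeq2 Padj = 0.241), and Cldn6 was called without IDPN 1 (1.40), without IDPN 3 (1.32) and with total-count scaling (1.28).

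Cldn4, a claudin of tight epithelia, had 2001, 2447 and 1331 normalized counts in Control, against 1629, 13834 and 1974 in IDPN. Its excess in IDPN 2 was the largest of the 8, 5.65 times the highest other library (log2-Fold_Change 1.59, DESeq2 Padj = 0.462; −0.10 without IDPN 2). Cldn3, which lies 39279 bases from Cldn4, had 10795, 12272 and 7372 in Control, against 8004, 20385 and 10662 in IDPN (0.36; −0.12 without IDPN 2). For both genes, IDPN 1 and IDPN 3 fell within the range of Control.

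Cldn7, a claudin of basolateral membranes as well as of the junction, had 3822, 4021 and 3281 normalized counts in Control, against 2542, 8476 and 2601 in IDPN. IDPN 1 and IDPN 3 were below all Control libraries and IDPN 2 was above them, and without IDPN 2 the log2-Fold_Change was −0.53 (DESeq2 Padj = 0.0416), under the fold threshold. Lsr, the most widely expressed angulin, had 3628, 3309 and 3235 in Control, against 2842, 5855 and 2710 in IDPN, the same pattern (0.17; −0.29 without IDPN 2, DESeq2 Padj = 0.415). Of its 76-base stretches, 25.7% are shared with the antisense gene Gm4673. Marveld3, a MARVEL protein of the strand, had 1417, 1415 and 1941 in Control, against 1683, 3919 and 1211 in IDPN (0.51; −0.14 without IDPN 2).

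**Figure D4:**
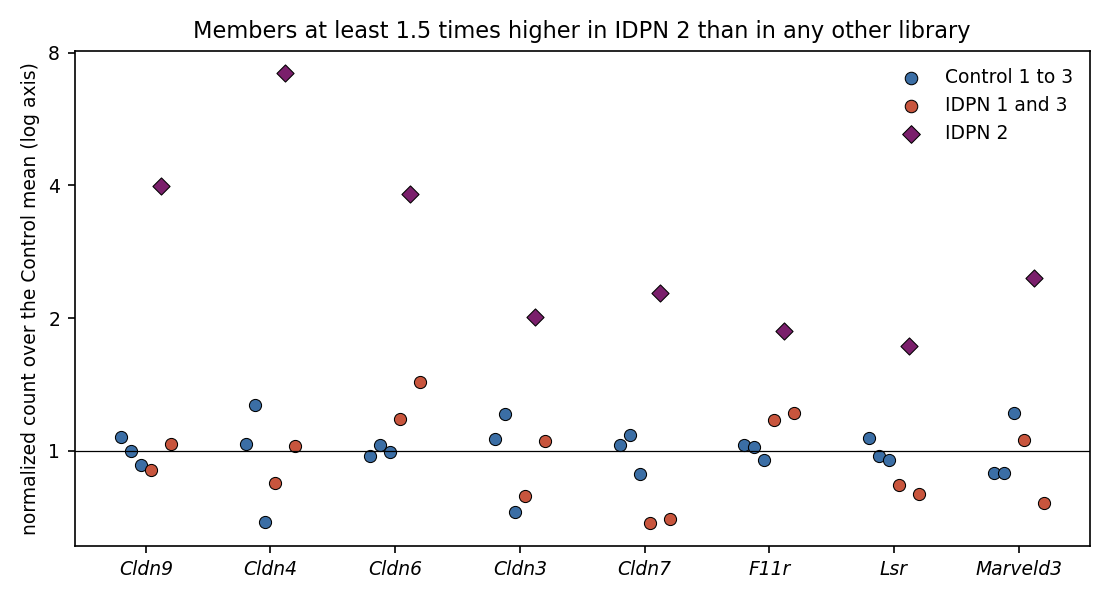
Normalized count of each library divided by the Control mean of the gene (log axis) for the 8 members that were at least 1.5 times higher in IDPN 2 (diamonds) than in any other library. The diamond of Cldn4 is highest, and IDPN 1 and IDPN 3 lie among or near the Control libraries, below them for Cldn7 and Lsr and above them for Cldn6 and F11r.

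Summed over all claudins, the level per length was 60663 to 80628 normalized counts per kilobase in Control, 65210 and 74487 in IDPN 1 and IDPN 3, and 198931 in IDPN 2. With Cldn9 left out it was 28427 to 43336 in Control, 33678 and 38478 in IDPN 1 and IDPN 3, and 60504 in IDPN 2. The same library was high for the simple-epithelium keratins, with Krt8 at 155450 normalized counts against 5964 to 9308 and Krt18 at 109830 against 7461 to 14228 in the other 5. The 7 epithelial markers, none of them at 0, summed to 20656 to 27973 in Control, 25543 and 31714 in IDPN 1 and IDPN 3 and 276930 in IDPN 2. Krt8 and Krt18 made up most of that IDPN 2 sum. Of the 7 markers 5 were tested, with 4 higher and 1 lower in IDPN, and 1 was called higher and none lower. The part of the keratin and marker counts in the claudin counts of IDPN 2 was not tested. The HC markers of the same library summed to 22988, the highest IDPN sum, with the lowest at 22654. Its supporting cell sum of 262672 was also the highest in IDPN. Without IDPN 2, 1.35% of 17373 genes rose and 3.28% fell, and of the members Marveld1 rose and Cldn14 fell.

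The partners of the junction were taken from a list of polarity proteins, other scaffolds, adhesion molecules and membrane proteases, of which 47 were in the table and 46 were tested. Of these 1 rose and 2 fell, with a median log2-Fold_Change of 0.03. Over all 17650 genes tested, 2.32% rose and 3.42% fell, so the partners were called at about the rate of any gene. Prkci, the atypical protein kinase C of the Par polarity complex, had 199, 287 and 356 normalized counts in Control, against 462, 435 and 572 in IDPN. Its groups did not overlap (0.80, SE 0.25, DESeq2 Padj = 0.0241), and the edgeR adjusted p was 0.0923. The call was lost without Control 1 (0.60, DESeq2 Padj = 0.178), Control 2 (0.81, DESeq2 Padj = 0.114), IDPN 1 (0.84, DESeq2 Padj = 0.0762) or IDPN 3 (0.67, DESeq2 Padj = 0.219). Cask, a membrane-associated scaffold kinase, had 1605, 1274 and 1207 in Control, against 649, 782 and 839 in IDPN. All IDPN libraries lay below Control (−0.85, SE 0.19, DESeq2 Padj = 0.000365; edgeR adjusted p = 0.0191). Tjap1, a tight junction-associated protein, had 5856, 6008 and 7366 in Control, against 3644, 4361 and 2820 in IDPN, again without overlap (−0.83, SE 0.19, DESeq2 Padj = 0.000663; edgeR adjusted p = 0.0462). The calls of Cask and Tjap1 were lost with total-count scaling (−0.59 and −0.61).

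The most abundant partners per length were Epcam, an adhesion molecule that binds Cldn7, and Spint2, an inhibitor of membrane serine proteases. Epcam had 62018, 62067 and 42733 normalized counts in Control, against 33399, 84551 and 37836 in IDPN (log2-Fold_Change −0.10, DESeq2 Padj = 0.922). IDPN 1 and IDPN 3 were below Control and IDPN 2 above it, as for Cldn7, and without IDPN 2 Epcam fell (−0.64, DESeq2 Padj = 0.0325). Spint2 had 49394, 50415 and 35906 in Control, against 29780, 39530 and 34273 in IDPN, with overlap (−0.39, DESeq2 Padj = 0.229).

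Of 17 transcription factor genes that act on junction genes, 13 were tested. DESeq2 called 0 of them and edgeR 0, while over all genes tested DESeq2 called 2.32% higher and 3.42% lower. Of the 13, 2 had an unadjusted DESeq2 p under 0.05 (Zeb1 and Zeb2) and 3 an unadjusted edgeR p under 0.05 (also Elf3). The median log2-Fold_Change of the 13 was 0.13, and with total-count scaling Elf3 was called. The most abundant per length over all libraries were Elf3 and Esrrb. In Control alone Esrrb led at 296 normalized counts per kilobase, followed by Grhl2, an activator of epithelial junction genes, at 263 and Elf3 at 256. Elf3, an epithelial ETS factor, had 411, 334 and 415 normalized counts in Control, against 450, 1554 and 490 in IDPN, above Control in all 3 and highest in IDPN 2 (1.11, DESeq2 Padj = 0.328). Without IDPN 2 the value was 0.28 (DESeq2 Padj = 0.654), and Elf3 was called without IDPN 1 (1.41) and without IDPN 3 (1.37). Esrrb, an orphan nuclear receptor of inner ear epithelium, had 866, 762 and 596 in Control, against 920, 768 and 1201 in IDPN, with overlap (0.38, DESeq2 Padj = 0.386).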

How the data were processed

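Vestibular epithelium of 6 mice was profiled by SMART-seq2, from 6 to 11 ng of RNA, without strand or molecular identifiers. The authors aligned reads with STAR 2.5.3a to GRCm38 (GENCODE M15) and estimated counts with RSEM 2.3.0. The deposited values are these expected counts, in whole numbers, without normalization or filtering. Groups followed the labels, which give separate animals and 1 batch. Sample codes have 1 stem in the 3 Control animals, another in IDPN 1 and another in IDPN 2 and IDPN 3, and what the codes stand for cannot be told apart from treatment.

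All 52636 genes were fitted with DESeq2 1.42.0 (Wald test, R 4.3.3), as the study's methods name it, and called at a Benjamini-Hochberg adjusted p under 0.05 and a fold change above 1.5. Adjustment was over all genes tested, and Wald intervals are 95%. Alternatives were edgeR 4.0.16 (quasi-likelihood), size factors, filters, a test against the fold and leaving out each library. The code was tested on simulated data. Replicate libraries differed by more than sampling noise. Coordinates and lengths came from GENCODE M21 (GRCm38), promoters from RefSeq. The members and lists were chosen with earlier results of these data known. All members are accounted for except 1 that is not reported here. Those called, past the adjusted p, linked to deafness or among the 10 most abundant per length are given in every library. Of the partners, called genes and the 2 most abundant of each list are named.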

Additional observations from a re-analysis of the deposited data

How the results depend on the processing

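The count of members that rose (1) became 0 with the edgeR quasi-likelihood test and with a test against a fold change of 1.5, and 3 with total-count scaling, which moved the median log2-Fold_Change of all tested genes from 0.02 to 0.27. Leaving out a library gave 0 to 2. The count of members that fell (1) became 0 under all 3 of these settings, and leaving out a library gave 0 to 1. For partner and transcription factor genes together, the count that rose (1) became 0 with edgeR and with the test against a fold change of 1.5, 2 with total-count scaling (Prkci and Elf3), and 0 to 1 when a library was left out (Elf3 in place of Prkci without IDPN 1 and without IDPN 3). The count that fell (2) became 0 with total-count scaling and with the test against a fold change of 1.5, and was 2 to 3 when a library was left out. TMM factors, the count minimum, independent filtering off, the Cook's distance filter off and protein-coding genes only left these 4 counts within 1.5 times. At an unadjusted p under 0.05 there were 8 members with DESeq2 and 8 with edgeR, 10 with total-count scaling and 1 in the test against the fold, and of the partner and transcription factor genes together 10, 10, 14 and 0. The causes were not tested.

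Over 36 genes and 14 alternatives, 439 of 504 log2-Fold_Change values kept their direction and side of the thresholds, 23 lost a call, 9 gained one and 33, over 18 genes, changed sign. No value that changed sign was called in either fit. Total-count scaling turned Cldn19 (0.22), Cldn23 (0.092), Cldn5 (0.12), Jam2 (0.25) and Epcam (0.12), and edgeR turned Jam2 to 0.00031. Leaving out each library in turn gave, for the other genes that changed sign and for some of these, ranges of Cgn from −0.069 to 0.20, Cldn11 from −0.49 to 0.010, Cldn12 from −0.067 to 0.13, Cldn19 from −0.22 to 0.14, Cldn3 from −0.12 to 0.62, Cldn4 from −0.096 to 2.04, Cldn5 from −0.38 to 0.21, Cldn7 from −0.53 to 0.58, Cldn8 from −0.11 to 0.32, Cldn9 from −0.042 to 1.33, Jam2 from −0.11 to 0.074, Lsr from −0.29 to 0.36, Marveld2 from −0.029 to 0.18, Marveld3 from −0.14 to 0.81, Tjp1 from −0.043 to 0.28, Tjp3 from −0.011 to 0.33 and Epcam from −0.64 to 0.14. The values without IDPN 2 are those below 0 for Cldn3, Cldn4, Cldn7, Cldn9, Lsr, Marveld2, Marveld3 and Cgn. Cldn9 took 48.8% ± 3.74 (SD, n = 3) of the summed claudin level in Control, 51.4% with the longest transcript and 45.7% with coding length. No paired analysis was possible because the labels give no replicate numbers. With 3 libraries a group, the intervals of most members leave room for changes beyond 1.5-fold.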
